A study of Homo sapiens with 30 samples.

Results

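Gene expression 2 h after exposure to tobacco shisha smoke from a waterpipe heated by charcoal was compared with that of control cells taken at the same time. The comparison rests on 6 of the 30 libraries of the study, 3 from exposed wells and 3 from control wells, chosen by their labels. All were BEAS-2B cells, an immortalised human bronchial epithelial line grown without the other cells of an airway. Exposed cells spent 30 min on a rocker with the smoke of tobacco shisha on charcoal, and RNA was taken with Trizol 2 h later. Control cells carry only the label of a control at 2 h, and the sources used here do not say what they received in place of smoke. The other groups that appear below, each of 3 wells, were tobacco shisha on charcoal at 24 h, herbal shisha without tobacco on charcoal at 2 h, charcoal alone at 2 h, tobacco shisha on an electronic heater at 2 h, and control cells at 24 h. Each smoke was used at the highest dose that gave no release of LDH, an enzyme that leaks from dying cells, at 24 h. No label says that wells came from separate cultures, so p-values measure a spread between wells that may be technical. This spread was pooled for each gene over all 30 libraries in 10 groups. It thus includes the 24 h groups of the other smokes, which are not compared here.

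Epithelial cells answer a sudden insult first with immediate early genes, whose transcription needs no new protein. Kinases such as ERK and p38 switch these genes on through factors already bound at their promoters, among them SRF, which binds the CArG box, and CREB, which binds cAMP response elements. Many immediate early genes code for transcription factors that drive a later wave of genes, and others code for phosphatases and RNA binding proteins that end the response. Smoke also carries aromatic hydrocarbons, which are sensed by the aryl hydrocarbon receptor AHR, and electrophiles, which release the antioxidant factor NRF2.

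The values are FPKM, reads scaled by transcript length and library size, with no counts, so the depth behind them is unknown. Between 7598 and 7664 gene names reached 1 FPKM in the exposed wells, against 7877 to 7936 in the control wells. On the log2(FPKM + 1) scale, wells of the same group correlated across genes at 0.989 to 0.992, and exposed with control wells at 0.974 to 0.977. The keratin KRT8 averaged 543 FPKM in exposed wells and 534.5 FPKM in control wells, and 9 of 19 keratin and junction genes averaged 1 FPKM or more in both groups. No ciliated cell marker and no red blood cell gene averaged 1 FPKM in either group. MUC1 was the single secretory marker at that level, and CD14 and CD68 were the only 2 of 12 immune markers. In a lysate of all cells of a well, fewer cells of a kind and less RNA per cell cannot be told apart.

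Of 8531 genes tested, 3001 (35.2%) differed between exposed and control wells at an adjusted p below 0.05 (limma, Benjamini-Hochberg over all genes tested), 725 (8.5%) higher and 2276 (26.7%) lower. By at least 2-fold on the log2(FPKM + 1) scale, 115 genes (1.35%) rose and 26 (0.305%) fell. In 4550 genes (53.3%) the 3 wells of one group all lay beyond the 3 of the other. The median change of all genes was -0.08 log2 units. Scaling the libraries to a common median moved that value to 0.00 and gave 1467 higher and 1508 lower calls. All 725 rises kept their call under this scaling, and 1508 of the 2276 falls kept theirs. The largest rises and falls named below lie far outside this shift, and group counts that change with it are given under both scalings. All gene lists were drawn up with earlier results of these data known, so the direction of a list is not independent evidence. Of 613 members of the gene and marker lists 463 were found by exact name, so many counts cover only part of a list. In the comparison with control at 2 h, the members of each group are read against the 8.5% of all genes called higher and the 26.7% called lower. Counts of that comparison after scaling are read against the 1467 higher and 1508 lower calls among all 8531 genes.

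The transcription factors of the immediate early response were higher almost throughout. Of the 18 members tested, 17 rose and none fell, with a median log2 change of 1.78. A gene was tested if it reached 1 FPKM in at least 3 of all 30 libraries, exposed ones included. Members low in control wells could thus enter only by being high after smoke. EGR2 and EGR3 entered in this way, with means of 0.022 and 0.026 FPKM in the control wells at 2 h. The filter therefore favours rises in this count and in those of other lists. The promoters of 4 genes are shown because these genes rose and the letters hold motifs of factors named above. They are the 250 bases before the start of each gene in RefSeq (GRCh38.p14, the same assembly as the deposited hg38 values), read 5′ to 3′ on the strand of the gene. EGR1 is taken from chr5:138465229-138465478 on the plus strand, SRF from chr6:43171019-43171268 on the plus strand, DUSP1 from chr5:172771196-172771445 on the minus strand and JUNB from chr19:12791236-12791485 on the plus strand. Capitals mark the CArG box and the letters TGACG of the cAMP response element, or CGTCA where it lies on the other strand.
EGR1: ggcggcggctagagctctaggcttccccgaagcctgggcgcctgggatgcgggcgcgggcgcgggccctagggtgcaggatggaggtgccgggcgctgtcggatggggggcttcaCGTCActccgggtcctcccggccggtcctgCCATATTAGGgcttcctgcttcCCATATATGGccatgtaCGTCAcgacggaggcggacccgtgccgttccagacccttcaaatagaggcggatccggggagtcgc
SRF: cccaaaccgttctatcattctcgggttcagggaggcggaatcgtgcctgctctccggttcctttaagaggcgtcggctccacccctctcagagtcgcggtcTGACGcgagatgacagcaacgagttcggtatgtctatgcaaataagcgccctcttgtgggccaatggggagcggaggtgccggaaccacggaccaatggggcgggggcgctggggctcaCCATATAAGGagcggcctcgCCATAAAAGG
DUSP1: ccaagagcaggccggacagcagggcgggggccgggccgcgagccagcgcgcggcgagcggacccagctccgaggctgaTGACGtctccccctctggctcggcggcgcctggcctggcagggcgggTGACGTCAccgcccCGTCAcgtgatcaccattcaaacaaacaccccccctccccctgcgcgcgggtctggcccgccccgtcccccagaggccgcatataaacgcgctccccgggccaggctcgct
JUNB: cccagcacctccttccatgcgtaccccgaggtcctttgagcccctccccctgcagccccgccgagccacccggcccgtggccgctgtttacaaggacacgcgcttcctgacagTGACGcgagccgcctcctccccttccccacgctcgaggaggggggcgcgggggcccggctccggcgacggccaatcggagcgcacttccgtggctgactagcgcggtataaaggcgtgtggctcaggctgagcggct
The EGR1 window holds 2 CArG boxes and 2 TGACG matches, and that of SRF 2 CArG boxes and 1 TGACG match. DUSP1 holds 4 TGACG matches, of which a pair overlaps on opposite strands, and JUNB holds 1. Promoters of this length were found for 14 of the 17 factors that rose, and TGACG on either strand was present in 11 of them (78.6%), against 30.7% of the promoters of all 6665 tested genes with one. Among all genes called higher the share with TGACG was 32.7%, and among those called lower 30.6%, both near that of all genes. A CArG box was present in 2 of the 14 (14.3%), against 1.96% of all genes called higher and 0.990% of all. The AHR core letters GCGTG were present in 5 of the 14 (35.7%), against 46.8% of all, and the letters TGANTCA of AP-1 sites in none of the 14, against 3.80% of all. The windows of NR4A1 and ATF3 held none of these 4 motifs. These genes span 36670 and 55370 bases, and each window lies before the start of the whole gene. Transcripts measured here may start elsewhere in a gene, which was not checked, so an absent motif does not describe every promoter of it. A match is a description of the letters and says nothing of binding in these cells.

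NR4A1, an orphan nuclear receptor (chr12:52022832-52059503, GRCh38), had the largest rise of all genes on the log2(FPKM + 1) scale. It was at 66.8, 53.4 and 55.0 FPKM in exposed wells, against 0.784, 0.842 and 0.726 FPKM in control wells (log2 change 5.05, SE 0.24, adjusted p = 6.74e-13; SE is the standard error of the fitted change). The wells of the 2 groups lay far apart, and the ratio of the means was 74.5. The ratio was higher still for EGR3, at 413, and EGR2, at 88.8, whose control wells were near 0 FPKM. Its relative NR4A3 rose by 2.13 and NR4A2 by 0.95 log2 units. NR4A2 was listed at 0 in 2 of the 3 control wells and stayed near 0.973 FPKM in exposed wells.

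Zinc finger factors of the EGR family were low in control wells. EGR3 measured 13.7, 8.60 and 9.88 FPKM in exposed wells, against 0.0264, 0.0256 and 0.0260 FPKM in control wells (log2 change 3.49, SE 0.20, adjusted p = 1.38e-11). EGR1 measured 28.7, 16.7 and 22.9 FPKM in exposed wells, against 1.68, 1.98 and 1.57 FPKM in control wells (log2 change 3.09, SE 0.22, adjusted p = 3.19e-10). For both genes the second exposed well was the lowest, and every exposed well was above every control well. EGR2 rose by 1.51 log2 units to 2.62, 1.12 and 2.19 FPKM in exposed wells. EGR4, also called higher, was at 0.973, 0.596 and 0.488 FPKM in exposed wells and listed at 0 in all 3 control wells. KLF10, a zinc finger factor of the TGF-beta response, was at 127, 93.1 and 116 FPKM in exposed wells, against 10.4, 11.4 and 10.8 FPKM in control wells (log2 change 3.24, SE 0.26, adjusted p = 2.2e-09).

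The AP-1 family, leucine zipper factors that bind DNA in pairs, rose unevenly. JUNB measured 148, 116 and 105 FPKM in exposed wells, against 14.3, 13.9 and 14.3 FPKM in control wells (log2 change 3.02, SE 0.12, adjusted p = 3.41e-14), with no overlap between the groups. ATF3, a stress-induced partner of AP-1 proteins, measured 60.9, 34.0 and 55.3 FPKM in exposed wells, against 3.85, 3.06 and 2.80 FPKM in control wells (log2 change 3.56, SE 0.27, adjusted p = 7.03e-10). FOS, the classical immediate early gene, remained low in exposed wells at 6.14, 3.43 and 5.10 FPKM, against 0.795, 0.618 and 0.514 FPKM in control wells (log2 change 1.82, SE 0.29, adjusted p = 2.96e-05). JUN rose by 1.72, FOSL2 by 1.53, MAFF by 2.11 and JUND by 0.81 log2 units. SRF itself, the factor that binds CArG boxes, rose by 1.33 and the stemness factor KLF4 by 1.75. KLF6 was not called (adjusted p = 0.121), its exposed wells being at 37.6, 7.58 and 37.6 FPKM and its control wells at 13.3, 16.1 and 3.12 FPKM, with overlap.

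**Figure D1:**
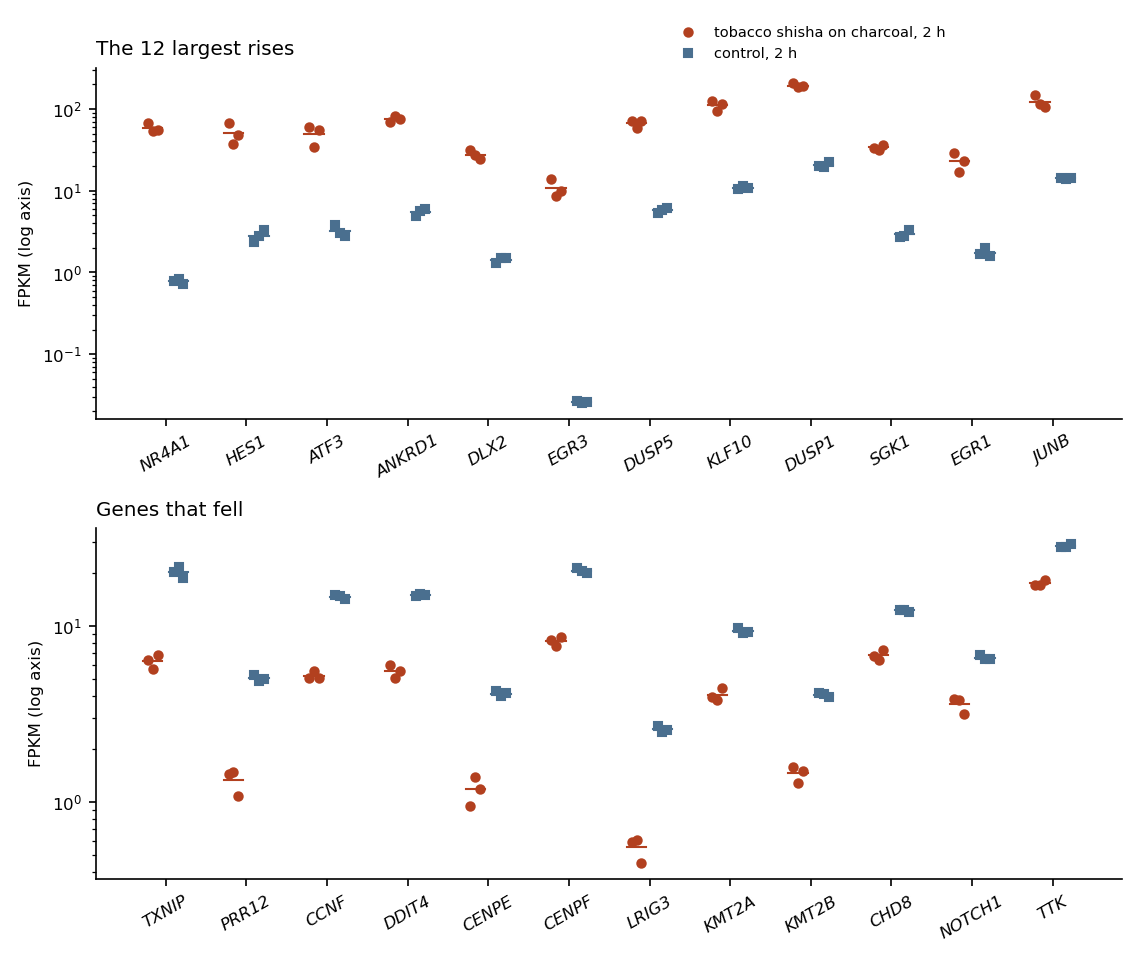
FPKM of the 12 genes with the largest rises (top) and of 12 genes that fell, picked from those named in the text (bottom), in each of the 3 wells of tobacco shisha on charcoal at 2 h (circles) and of the 3 control wells (squares), on a log axis with bars at the means. In both panels the exposed and control wells of each gene are apart, and EGR3 has the widest gap, with control wells near 0.026 FPKM.

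Other genes of the early wave gave 10 rises and no fall among 14 members tested (median 1.67). SGK1, a kinase that acts on ion channels and sodium uptake, measured 33.3, 31.9 and 36.3 FPKM in exposed wells, against 2.73, 2.77 and 3.29 FPKM in control wells (log2 change 3.15, SE 0.25, adjusted p = 1.57e-09). NAB2, which binds EGR proteins and represses their targets, measured 70.2, 79.3 and 70.4 FPKM in exposed wells, against 17.2, 17.1 and 16.1 FPKM in control wells (log2 change 2.06, SE 0.15, adjusted p = 3.64e-10). IER2 measured 77.0, 65.9 and 63.9 FPKM in exposed wells, against 21.5, 23.1 and 21.2 FPKM in control wells (log2 change 1.60, SE 0.12, adjusted p = 3.79e-10). The spread between wells was small against the gap for these genes. TRIB1, a pseudokinase, rose by 2.20, the kinase PLK3 by 2.04, PPP1R15A, the phosphatase subunit that reverses the translation block of the stress response, by 2.00, and GADD45B by 1.73 log2 units. BTG2, an antiproliferative gene, was at 4.32, 4.14 and 4.75 FPKM in exposed wells, against 4.11, 4.54 and 3.77 FPKM in control wells, and its groups overlapped (adjusted p = 0.527). The kinase gene PLK2 was not called either (log2 change -0.05, adjusted p = 0.565), nor were IER5 (0.62) and ZFP36L2 (0.09).

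Genes that brake ERK and EGFR signalling, most of them induced by the pathway they restrain, gave 8 rises and 2 falls among 11 tested (median 0.73), and 8 and 1 after scaling. DUSP5, a nuclear phosphatase of ERK, measured 71.5, 58.7 and 71.4 FPKM in exposed wells, against 5.37, 5.88 and 6.11 FPKM in control wells (log2 change 3.33, SE 0.21, adjusted p = 5.85e-11). DUSP1, whose phosphatase prefers p38 and JNK, measured 205, 185 and 188 FPKM in exposed wells, against 20.1, 19.7 and 22.3 FPKM in control wells (log2 change 3.16, SE 0.18, adjusted p = 1.38e-11). SPRY4, an adaptor that limits receptor signalling to ERK, measured 18.3, 18.6 and 18.3 FPKM in exposed wells, against 2.41, 2.53 and 2.66 FPKM in control wells (log2 change 2.46, SE 0.18, adjusted p = 6.22e-10). All 3 were tight within groups, and the EGFR inhibitor ERRFI1 rose by 2.99 log2 units. The LRIG proteins, transmembrane inhibitors of EGFR, went the other way: LRIG3 measured 0.592, 0.609 and 0.448 FPKM in exposed wells, against 2.71, 2.48 and 2.58 FPKM in control wells (log2 change -1.21, SE 0.08, adjusted p = 1.24e-10), while LRIG1 fell by 0.22 log2 units and lost its call after scaling. HBEGF, the one EGFR ligand above the filter, measured 108, 109 and 100 FPKM in exposed wells, against 18.8, 18.2 and 18.6 FPKM in control wells (log2 change 2.45, SE 0.22, adjusted p = 1.37e-08).

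The remaining members of the 12 largest rises were HES1, ANKRD1 and DLX2. HES1, a repressor best known as a Notch target (chr3:194136148-194138732), measured 68.0, 37.0 and 47.7 FPKM in exposed wells, against 2.35, 2.82 and 3.27 FPKM in control wells (log2 change 3.73, SE 0.25, adjusted p = 1.54e-10). The exposed wells were spread, with the first the highest, and all lay above control. JAG1, a Notch ligand, rose to 4.81, 4.98 and 4.83 FPKM in exposed wells, against 1.28, 1.12 and 1.01 FPKM in control wells, and NOTCH1, the receptor, fell to 3.86, 3.81 and 3.15 FPKM in exposed wells, against 6.85, 6.51 and 6.51 FPKM in control wells (log2 change -0.73, SE 0.09, adjusted p = 2.24e-06). DLX2, a homeobox gene, measured 31.5, 27.3 and 24.3 FPKM in exposed wells, against 1.3, 1.49 and 1.5 FPKM in control wells (log2 change 3.56, SE 0.22, adjusted p = 6.96e-11). ANKRD1, an ankyrin repeat protein and target of the co-activator YAP, measured 69.4, 82.2 and 75.9 FPKM in exposed wells, against 4.91, 5.72 and 5.96 FPKM in control wells (log2 change 3.56, SE 0.42, adjusted p = 7.01e-07).

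YAP targets, read as a sign of cell shape and tension, gave 5 rises and no fall among 7 tested (median 1.19), and 6 rises after scaling. CYR61, a matrix-associated growth factor, was already high and measured 726, 710.1 and 668 FPKM in exposed wells, against 173, 178 and 179.7 FPKM in control wells (log2 change 1.98, SE 0.14, adjusted p = 2.51e-10). F3, tissue factor, which starts blood clotting, measured 205, 241 and 209 FPKM in exposed wells, against 56.0, 52.9 and 53.5 FPKM in control wells (log2 change 1.99, SE 0.29, adjusted p = 8.11e-06). THBS1, a matrix glycoprotein, measured 494, 536 and 558 FPKM in exposed wells, against 233, 221 and 238 FPKM in control wells (log2 change 1.19, SE 0.16, adjusted p = 2.98e-06). All 3 had exposed wells well above control. Genes of the actin cytoskeleton regulated by SRF gave 4 rises and no fall among 9, all modest, such as TAGLN with 0.38 and FILIP1L with 0.57 log2 units, and 5 rises after scaling. Feedback genes of TGF-beta signalling gave 2 rises and 1 fall among 7, and 3 and 1 after scaling. SMAD7, an inhibitor of TGF-beta receptors, rose to 22.5, 15.9 and 18.2 FPKM in exposed wells, against 5.91, 5.89 and 6 FPKM in control wells.

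Of 8 AHR targets listed, 7 were found by name and 3 were tested, and all 3 rose. CYP1B1, a cytochrome that oxidises aromatic hydrocarbons, measured 23.3, 28.3 and 22.5 FPKM in exposed wells, against 12.1, 12.5 and 11 FPKM in control wells (log2 change 0.99, SE 0.21, adjusted p = 0.000562). TIPARP, an ADP-ribosyltransferase that restrains AHR, measured 60.6, 57.1 and 56.7 FPKM in exposed wells, against 19.1, 19.3 and 19.0 FPKM in control wells (log2 change 1.55, SE 0.11, adjusted p = 3.4e-10). NEDD9, a scaffold of focal adhesions, rose by 1.23 log2 units. It averaged 0.621 FPKM in control wells at 2 h and 0.859 FPKM in those at 24 h, so it passed the filter through smoke wells. None of the 3 overlapped between groups.

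Of 20 NRF2 targets, 5 rose and 1 fell, with a median of 0.03 log2 units; after scaling 8 rose and none fell. OSGIN1, an oxidative stress growth inhibitor, measured 4.27, 4.62 and 3.71 FPKM in exposed wells, against 1.15, 1.18 and 0.673 FPKM in control wells (log2 change 1.38, SE 0.20, adjusted p = 6.4e-06). SRXN1, which repairs oxidised peroxiredoxins, measured 61.5, 62.0 and 64.2 FPKM in exposed wells, against 42.1, 40.9 and 42.5 FPKM in control wells (log2 change 0.57, SE 0.06, adjusted p = 4.19e-08). TXNRD1, thioredoxin reductase, rose by 0.60, and GCLM, of glutathione synthesis, by 0.46 log2 units. NQO1, a quinone reductase often used as the marker of NRF2, was at 68.0, 65.5 and 65.4 FPKM in exposed wells, against 64.3, 64.2 and 69.9 FPKM in control wells, with overlap (adjusted p = 0.977). SLC7A11, the cystine importer, was not called either (log2 change -0.08).

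Genes of protein stress were called in part. The integrated stress response, the programme that slows translation and raises amino acid supply, gave 5 rises and no fall among 15. CHAC1, which breaks down glutathione, measured 3.68, 3.23 and 4.63 FPKM in exposed wells, against 1.24, 0.855 and 1.12 FPKM in control wells (log2 change 1.22, SE 0.18, adjusted p = 1.45e-05), and SLC3A2, an amino acid transporter chain, rose by 0.81 log2 units. Of 10 endoplasmic reticulum chaperones 3 rose and none fell, and 6 rose after scaling. HSPA5, the main one, measured 219, 234 and 219 FPKM in exposed wells, against 189, 196 and 187 FPKM in control wells (log2 change 0.23, SE 0.06, adjusted p = 0.00319), a small difference without overlap. Of 16 heat shock genes 2 rose, DNAJB1 and DNAJB4, each by 0.74 log2 units. HSPA1A, whose reads cannot be cleanly separated from those of the near-identical HSPA1B, was at 15.6, 13.9 and 12.9 FPKM in exposed wells, against 14.5, 14.1 and 13.8 FPKM in control wells (adjusted p = 0.992). Among 5 metallothionein and zinc genes the exporter SLC30A1 rose to 48.0, 51.5 and 49.4 FPKM in exposed wells, against 15, 15.5 and 15 FPKM in control wells (log2 change 1.65, SE 0.13, adjusted p = 1.13e-09), while MT2A was at 414, 426 and 323 FPKM in exposed wells and 394, 409 and 388 FPKM in control wells, with overlap. Of 13 p53 targets 2 rose and 3 fell, a share of falls near the 26.7% of all genes. CDKN1A, the cyclin kinase inhibitor p21, rose by 0.84 log2 units, whereas XPC, BBC3 and SESN1 fell by 0.51, 0.47 and 0.36.

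Secreted signals rose in part. Of 12 cytokines and chemokines 6 rose and 1 fell, and 7 rose and none fell after scaling. IL11, a cytokine of the IL6 family, measured 27.5, 28.1 and 25.6 FPKM in exposed wells, against 4.73, 4.99 and 5.40 FPKM in control wells (log2 change 2.22, SE 0.28, adjusted p = 1.75e-06). CSF2, also called GM-CSF, measured 5.70, 9.91 and 7.87 FPKM in exposed wells, against 2.11, 2.20 and 2.11 FPKM in control wells (log2 change 1.46, SE 0.16, adjusted p = 2.03e-07). CXCL8, the neutrophil attractant interleukin 8, measured 116, 133 and 117 FPKM in exposed wells, against 53.1, 54.2 and 56.8 FPKM in control wells (log2 change 1.14, SE 0.10, adjusted p = 1.6e-08). Exposed and control wells of these 3 did not overlap, and IL24, IL6 and IL1B rose by 1.32, 1.13 and 0.49 log2 units. CXCL1, a chemokine of the same receptor as CXCL8, fell by 0.23, a call lost after scaling, and CCL2 was not called (log2 change 0.02).

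NF-kB is a factor that also drives CXCL8 and IL6. Of 15 feedback genes and targets of NF-kB listed, 7 were tested. They gave no rise and 4 falls, 3 falls after scaling. ICAM1, an adhesion molecule for leukocytes, measured 41.9, 39.0 and 41.2 FPKM in exposed wells, against 57.1, 53.2 and 52.2 FPKM in control wells (log2 change -0.40, SE 0.06, adjusted p = 7.34e-06). NFKBIE and BIRC3 fell by 0.33 and 0.31 log2 units. Of 10 interferon response genes none was called under either scaling, and 1 nicotinic receptor subunit, CHRNB1, was above the filter and not called (3.94, 4 and 4.10 FPKM in exposed wells, against 4.41, 4.40 and 4.20 FPKM in control wells).

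Part of the proteases rose and part of the matrix genes fell. Among 13 matrix proteases and inhibitors 6 rose and 2 fell, and 7 and 1 after scaling. PLAU, urokinase, measured 154, 169 and 169 FPKM in exposed wells, against 90.3, 87.0 and 92.2 FPKM in control wells (log2 change 0.86, SE 0.10, adjusted p = 2.7e-07), and its receptor PLAUR rose by 0.88 and the protease ADAMTS1 by 1.38 log2 units. Among 15 collagens, laminins and other matrix genes 8 fell and 1, THBS1, rose, and 5 fell and 1 rose after scaling. FN1, fibronectin, measured 356, 333 and 403 FPKM in exposed wells, against 513, 486 and 504 FPKM in control wells (log2 change -0.46, SE 0.10, adjusted p = 0.000724), and HSPG2, the basement membrane proteoglycan perlecan, fell by 0.83 log2 units. COL4A1 and COL4A2, the collagens of basement membranes, fell by 0.49 and 0.53. Of 10 fibroblast markers 4 averaged 1 FPKM or more, and the summed level of the markers was 283 to 300.1 FPKM in exposed wells and 345 FPKM in each control well. Of the 4 tested 1 fell, COL1A1, which is also on the matrix list, by 0.40 log2 units, and none rose. Their part in the matrix result was not tested.

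**Figure D2:**
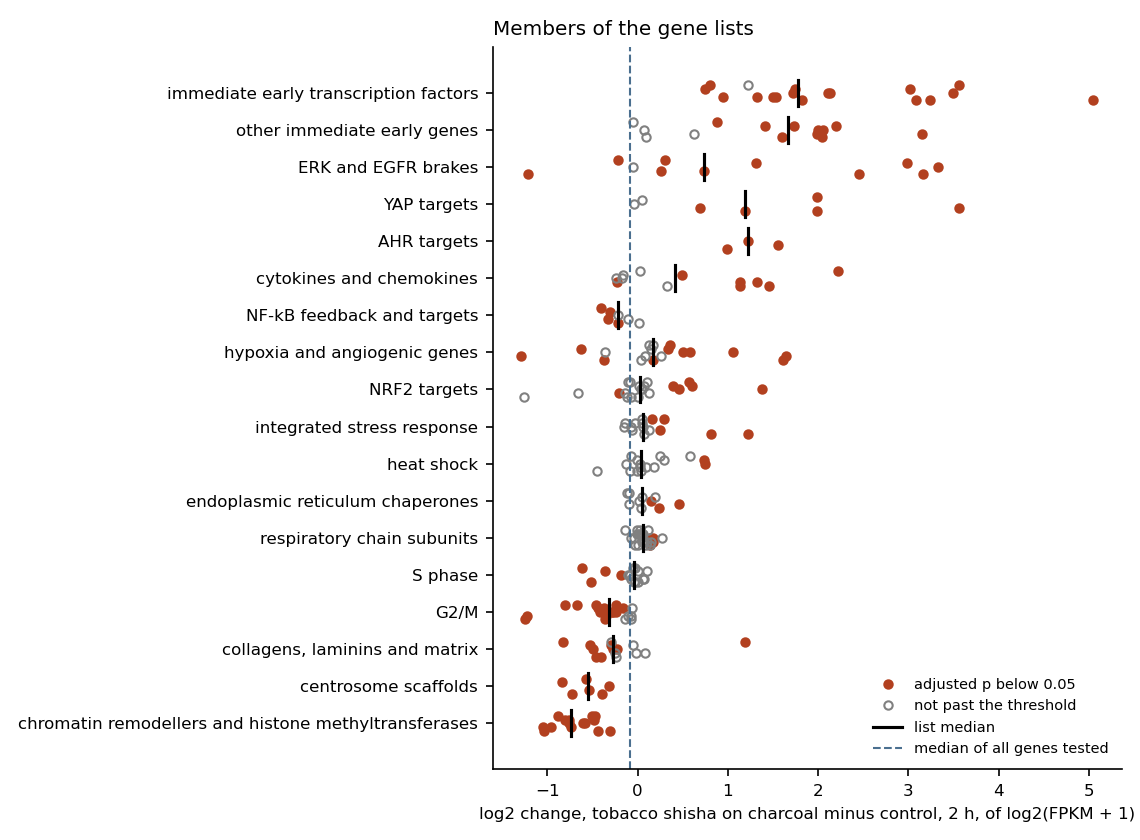
Log2 change, tobacco shisha on charcoal minus control at 2 h, of each tested member of 18 gene lists. Filled points passed an adjusted p of 0.05, open points did not, black bars are list medians and the dashed line is the median of all genes at -0.08. The immediate early lists lie to the right of that line, and the centrosome and chromatin lists lie wholly to its left.

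Cell cycle genes of G2/M fell more often than all genes. Of 20 G2/M genes 15 fell and none rose (12 after scaling), with a median of -0.31. CENPE, a motor at the kinetochore where chromosomes meet the spindle, measured 0.951, 1.39 and 1.19 FPKM in exposed wells, against 4.27, 3.99 and 4.14 FPKM in control wells (log2 change -1.24, SE 0.16, adjusted p = 1.67e-06). TTK, a kinase of the spindle checkpoint, measured 17.1, 17.2 and 18.2 FPKM in exposed wells, against 28.1, 28.3 and 29.3 FPKM in control wells (log2 change -0.67, SE 0.05, adjusted p = 6.29e-10). ASPM, of the spindle poles, fell by 0.81 log2 units, but the B cyclins CCNB1 and CCNB2 and the ubiquitin ligase parts CDC20 and UBE2C were not called, with log2 changes between -0.14 and -0.06. CCNF, cyclin F (chr16:2429447-2458854), was among the 10 largest falls and measured 5.04, 5.55 and 5.04 FPKM in exposed wells, against 14.9, 14.8 and 14.3 FPKM in control wells (log2 change -1.34, SE 0.09, adjusted p = 1.05e-10). Of 16 S phase genes 4 fell and none rose, a share of falls near the 26.7% of all genes. After scaling 3 fell and 2 rose. The median of the S phase list was -0.04 log2 units, against -0.08 for all genes. UHRF1, which maintains DNA methylation, and CDT1, which licenses replication, fell by 0.51 and 0.36.

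Of 12 centrosome scaffold genes listed, 7 were found by name and 6 were tested. All 6 fell, also after scaling. CEP152, which recruits the kinase of centriole duplication, measured 1.07, 0.795 and 1.15 FPKM in exposed wells, against 2.75, 2.31 and 2.69 FPKM in control wells (log2 change -0.84, SE 0.10, adjusted p = 8.14e-07). PCNT, pericentrin, measured 3.57, 3.61 and 3.33 FPKM in exposed wells, against 6.78, 6.23 and 6.4 FPKM in control wells (log2 change -0.73, SE 0.10, adjusted p = 6.73e-06). The groups were apart for both genes.

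All 15 chromatin remodellers and histone methyltransferases tested, of 24 listed, fell under both scalings. Their median was -0.74 log2 units against -0.08 for all genes. KMT2B, a methyltransferase of histone H3, measured 1.58, 1.27 and 1.5 FPKM in exposed wells, against 4.15, 4.10 and 3.96 FPKM in control wells (log2 change -1.05, SE 0.08, adjusted p = 1.32e-09). KMT2A, its relative (chr11:118436492-118526832), measured 3.95, 3.79 and 4.45 FPKM in exposed wells, against 9.71, 9.11 and 9.24 FPKM in control wells (log2 change -1.03, SE 0.12, adjusted p = 5.05e-07). CHD8, a helicase that moves nucleosomes, measured 6.79, 6.37 and 7.30 FPKM in exposed wells, against 12.4, 12.3 and 12.1 FPKM in control wells (log2 change -0.76, SE 0.06, adjusted p = 6.93e-10). The 3 genes had every exposed well below every control well. The acetyltransferases CREBBP and EP300 fell by 0.81 and 0.61, BPTF by 0.96, and the smallest fall of the list was that of CHD4 at 0.30.

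The genes of these last groups have long transcripts, and calls varied with transcript length across the whole table. Lengths were found for 8133 genes (95.3%). Of 851 genes with transcripts of up to 1000 nucleotides, 7.87% fell and 6.23% rose. Of 385 genes with transcripts above 8000 nucleotides, 59.0% fell and 3.90% rose. The share that fell was higher in each longer bin, also after scaling (4.0% in the shortest and 47.3% in the longest bin) and among genes with a mean of at least 5 FPKM (6.31% and 50.6%). The median transcript was 3614 nucleotides for genes that fell, 2588 for genes that rose and 2228 for genes not called. The median span on the genome was 44.3 kb, 18.2 kb and 23.9 kb for the same 3 sets. FPKM already divides by length, and the RNA quality of these samples is not given in the sources used here.

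**Figure D3:**
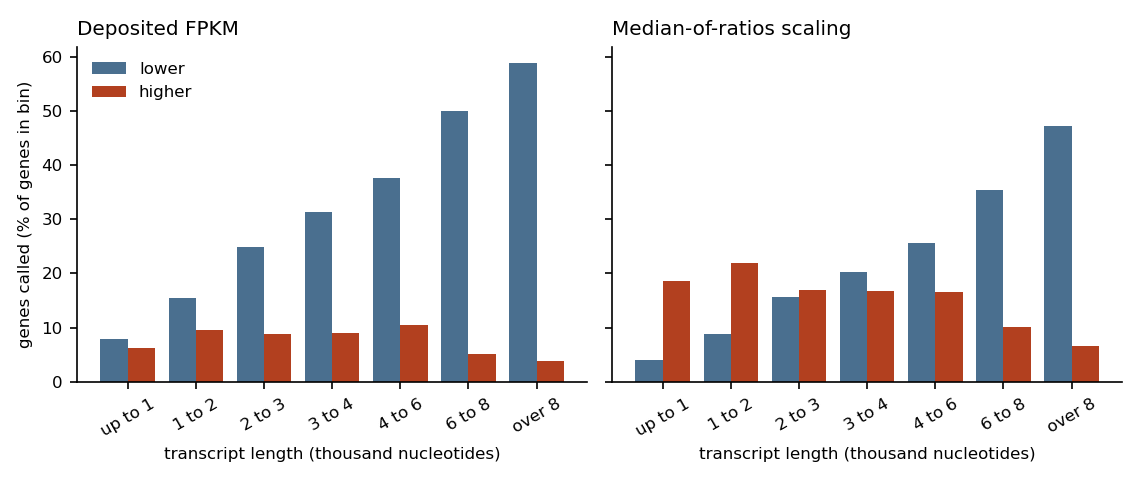
Share of tested genes called lower (left bar of each pair) and higher (right bar) in tobacco shisha on charcoal against control at 2 h, by transcript length, for the deposited FPKM and after median-of-ratios scaling. The share called lower climbs from the shortest to the longest bin in both panels, to 59.0% and 47.3%.

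The 10 largest falls otherwise held single genes of mixed kind, and several rest on values of 0. TXNIP, an inhibitor of thioredoxin that follows glucose supply, measured 6.41, 5.72 and 6.82 FPKM in exposed wells, against 20.4, 21.6 and 18.7 FPKM in control wells (log2 change -1.54, SE 0.15, adjusted p = 6.01e-08). PRR12, a proline-rich nuclear protein (chr19:49591182-49626439), measured 1.44, 1.48 and 1.08 FPKM in exposed wells, against 5.26, 4.88 and 5.02 FPKM in control wells (log2 change -1.38, SE 0.08, adjusted p = 2e-11). DDIT4, an inhibitor of mTORC1, measured 6.04, 5.09 and 5.54 FPKM in exposed wells, against 14.8, 15.2 and 15 FPKM in control wells (log2 change -1.29, SE 0.15, adjusted p = 7.94e-07). These 3 were even within groups. FLOT1, a membrane raft protein, was listed at 0 in all 3 exposed wells and at 3.42, 2.45 and 3.58 FPKM in control wells. GGNBP2 was listed at 0 in the third exposed well and DTX2 in the first, while the other exposed wells of these genes were at 9.47 and 9.82 FPKM for GGNBP2 and 3.97 and 3.47 FPKM for DTX2. C19orf48 was at 6, 25.7 and 7.03 FPKM in exposed wells, 1 of them far above the others, and at 33.9, 33.5 and 33.7 FPKM in control wells. RPRD2, which binds RNA polymerase, was at 2.25, 1.66 and 5.92 FPKM in exposed wells and 9.49, 8.36 and 9.72 FPKM in control wells. The last of the 10, listed under the name of the small RNA MIR1281, is not read as a small RNA here. In these files 73 tested genes, 14 of them called, had a 0 beside a group mean of at least 1 FPKM. Whether a listed 0 is a failed estimate or an absent transcript was not tested.

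Genes of metabolism and timing moved both ways. Of 18 hypoxia and angiogenic genes 8 rose and 3 fell, and 11 rose and 3 fell after scaling, DDIT4 among the falls. VEGFA, the growth factor of blood vessels, measured 12.7, 12.1 and 12.3 FPKM in exposed wells, against 2.87, 3.89 and 3.42 FPKM in control wells (log2 change 1.61, SE 0.12, adjusted p = 6.58e-10). ADM, the vasodilator adrenomedullin, measured 172, 173 and 167 FPKM in exposed wells, against 51.8, 52.1 and 58.0 FPKM in control wells (log2 change 1.64, SE 0.15, adjusted p = 9.06e-09). The glycolytic genes of the list moved little: ENO1 rose by 0.17, and LDHA (0.26), PGK1 (0.17) and ALDOA (0.08) were not called. Of 9 clock genes 4 rose and 4 fell, and 4 and 3 after scaling. BHLHE41, a repressor of the clock, rose to 2.29, 2.55 and 2.29 FPKM in exposed wells, against 0.236, 0.278 and 0.247 FPKM in control wells, PER1 rose by 0.49 and NR1D1 fell by 0.44. Of the TXNIP family ARRDC4 fell with TXNIP, by 0.35, and ARRDC3 rose by 0.79 log2 units. Respiratory chain subunits gave 4 rises among 24, and 13 after scaling, with the 4 at most 0.18 log2 units higher. Cytosolic ribosomal proteins gave 3 rises among 10, and 5 after scaling. Cholesterol genes gave 2 falls among 9, a share near the 26.7% of all genes, and 1 rise and no fall after scaling.

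The exposed wells were also set against the other smokes at 2 h, in comparisons that share those 3 wells (means ± SD, n = 3 wells per group). Each smoke was at its own highest dose without LDH release, so dose may differ along with the smoke, and the 2 cannot be told apart here. Against charcoal alone, 1536 genes (18%) differed, 531 (6.22%) higher and 1005 (11.8%) lower; the count was 980 without the first well of charcoal alone. ZFP36, an RNA binding protein that destabilises cytokine messages, was at 19.0 ± 1.31 FPKM after tobacco shisha on charcoal and 8.55 ± 0.376 FPKM after charcoal alone (log2 difference 1.06, SE 0.06, adjusted p = 1.35e-10). HES1 was at 50.9 ± 15.7 FPKM after tobacco shisha on charcoal and 13.6 ± 2.34 FPKM after charcoal alone (log2 difference 1.80, adjusted p = 5.55e-05). EGR1 differed by 1.03 and KLF10 by 0.93 log2 units, and 6 of 18 immediate early factors were higher and none lower. NR4A1 did not pass, at 58.4 ± 7.30 FPKM after tobacco shisha on charcoal and 58.0 ± 9.16 FPKM after charcoal alone (log2 difference 0.02, SE 0.24).

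Chaperones of the endoplasmic reticulum were lower after tobacco shisha on charcoal than after charcoal alone, 7 of 10 with none higher. HSPA5 was at 224 ± 8.45 FPKM after tobacco shisha on charcoal and 317 ± 15.3 FPKM after charcoal alone (log2 difference -0.50, SE 0.06, adjusted p = 1.08e-05). BIRC3, an inhibitor of cell death, was lower by 0.76 and ICAM1 by 0.36 log2 units, as were 4 of 7 NF-kB genes. Of the 15 chromatin genes 12 were lower and none higher, KMT2A by 0.66 log2 units. Among transcripts above 8000 nucleotides 143 of 385 were lower and 7 higher. Respiratory chain subunits went the other way, with 9 of 24 higher and none lower, and 13 higher after scaling. Under that scaling 700 of all 8531 genes were higher than after charcoal alone and 953 lower. TXNIP was higher, at 6.32 ± 0.557 FPKM after tobacco shisha on charcoal and 4.23 ± 1.49 FPKM after charcoal alone (adjusted p = 0.023). FTX and CEBPB, also among the largest differences, rest on uneven wells. CEBPB, a factor of the acute phase, was at 3.81, 66.8 and 48.0 FPKM after tobacco shisha on charcoal and at 90.2 ± 5.2 FPKM after charcoal alone.

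Against herbal shisha on charcoal few genes differed, 52 (0.61%), with 26 (0.305%) in each direction, and this count rests on single wells: it was 21 without tobacco well 1, 27 without tobacco well 2, 15 without herbal well 1 and 4 without herbal well 3. ZFP36 was at 19.0 ± 1.31 FPKM after tobacco shisha on charcoal and 14.7 ± 0.258 FPKM after herbal shisha (log2 difference 0.35, SE 0.06, adjusted p = 0.0118). TXNIP was at 6.32 ± 0.557 FPKM after tobacco shisha on charcoal and 11.6 ± 1.06 FPKM after herbal shisha (log2 difference -0.78, adjusted p = 0.0156), and ARRDC4 was lower with it by 0.49 log2 units. BTG2 was at 4.40 ± 0.314 FPKM after tobacco shisha on charcoal and 7.27 ± 0.132 FPKM after herbal shisha (log2 difference -0.62, adjusted p = 0.000776). KCTD11, an adaptor of ubiquitin ligases, was lower by 0.68, and CCDC85B, a repressor of transcription, was higher by 1.23. TRAPPC5 had the largest difference, with tobacco wells at 45.7, 52.5 and 47.2 FPKM and herbal wells at 0.686, 34.6 and 0.478 FPKM, so that it rests on 2 low herbal wells. No immediate early factor, chromatin gene or transcript above 8000 nucleotides passed; for FOS the log2 difference was -0.94 (SE 0.29), and missing the threshold does not show an equal response.

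Against tobacco shisha on the electronic heater, 1991 genes (23.3%) differed, 907 (10.6%) higher and 1084 (12.7%) lower; after scaling there were 1114 higher and 836 lower. The count was 569 in a fit of these 2 groups alone and 1237 without well 3 of tobacco shisha on charcoal. Without well 3 of the heater it was 1370. Immediate early factors were lower on charcoal, 11 of 18 with 1 higher. FOS was at 4.89 ± 1.37 FPKM after tobacco shisha on charcoal and 226 ± 42.5 FPKM on the heater (log2 difference -5.28, SE 0.29, adjusted p = 1.19e-11). EGR1 was at 22.8 ± 5.99 FPKM after tobacco shisha on charcoal and 340.5 ± 25.5 FPKM on the heater (log2 difference -3.87). EGR2 was lower by 3.53, IER2 by 2.06 and ZFP36 by 1.90 log2 units, and no well of these genes overlapped.

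Other genes were higher on charcoal than on the heater. NAB2, the EGR repressor, was at 73.3 ± 5.19 FPKM after tobacco shisha on charcoal and 27.9 ± 10.2 FPKM on the heater (log2 difference 1.43, SE 0.15, adjusted p = 4.59e-07). CYP1B1 was at 24.7 ± 3.14 FPKM after tobacco shisha on charcoal and 14.4 ± 3.36 FPKM on the heater (log2 difference 0.76, adjusted p = 0.00979). TXNRD1 was higher by 0.58, THBS1 by 0.86 and F3 by 1.11 log2 units, and 6 of 20 NRF2 targets were higher with 1 lower. The third heater well was the lowest heater well for NAB2, CYP1B1, TXNRD1, THBS1 and F3. For NAB2 the heater wells were at 36.85, 30.21 and 16.73 FPKM. DDIT4 was at 5.56 ± 0.475 FPKM after tobacco shisha on charcoal and 14.8 ± 2.25 FPKM on the heater (log2 difference -1.26, adjusted p = 4.54e-06). HSPA1A was lower on charcoal by 1.26 log2 units. PTPRK and GLIS2, also called, were listed at 0 in all 3 heater wells. Among transcripts above 8000 nucleotides 90 of 385 were higher on charcoal and 12 lower.

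**Figure D4:**
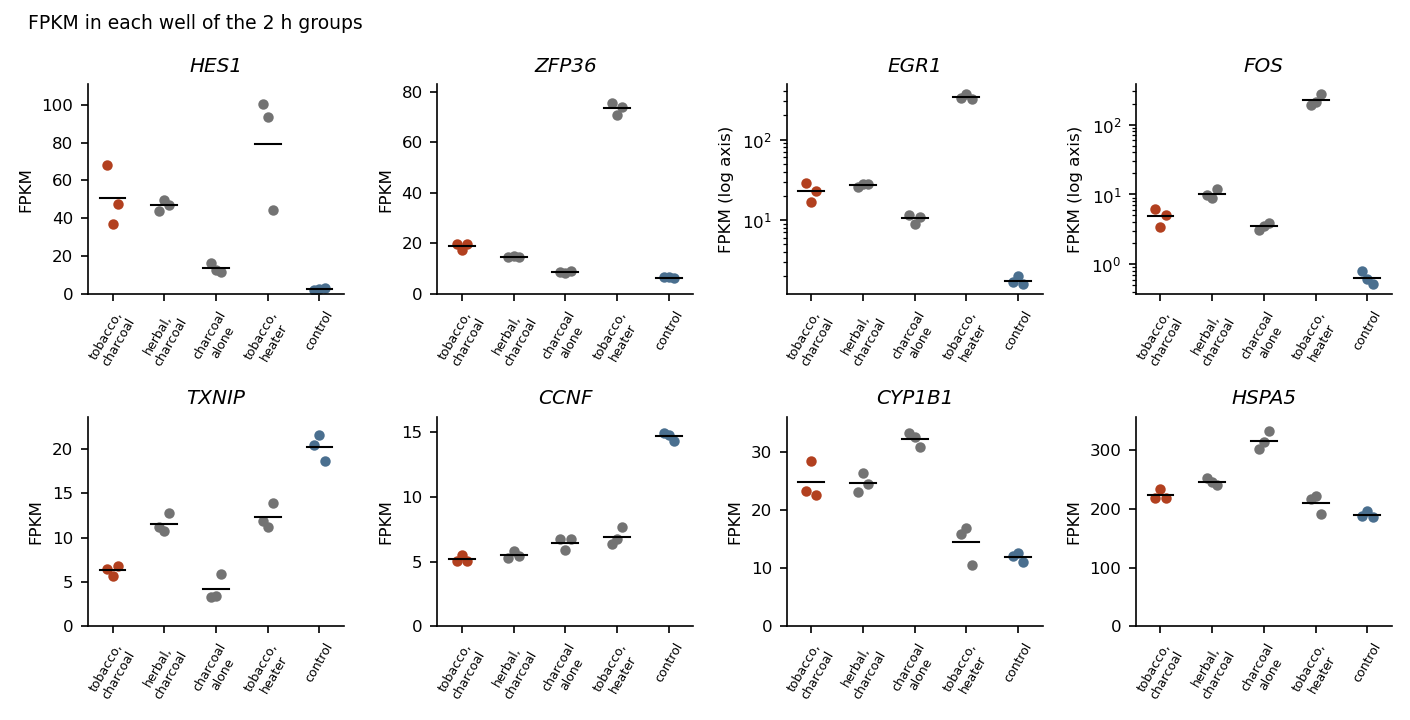
FPKM of 8 genes in each well of the 2 h groups, from tobacco shisha on charcoal at the left to control at the right, with bars at the means and log axes for EGR1 and FOS. FOS and ZFP36 are highest on the heater, CYP1B1 and HSPA5 after charcoal alone, and CCNF is low after all 4 smokes.

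Many of these effects differed at 24 h. The effect of tobacco shisha on charcoal against its control differed between 2 h and 24 h for 3502 genes (41.1%), more positive at 2 h for 920 (10.8%) and more negative for 2582 (30.3%); after scaling the split was 1508 and 1394. All 12 largest rises, which were picked by their change at 2 h, had a larger effect at 2 h. NR4A1 averaged 0.887 ± 0.130 FPKM after exposure and 1.00 ± 0.221 FPKM in control wells at 24 h, and the effects differed by 5.13 log2 units (adjusted p = 3.25e-10). ATF3 had a log2 change of -0.72 at 24 h (adjusted p = 0.0327), and SGK1 one of 0.77 (adjusted p = 0.0146). Of 18 immediate early factors 17 had a larger effect at 2 h and none a smaller one.

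Falls differed in whether they were seen again. CCNF averaged 14.1 ± 1.52 FPKM after exposure and 13.8 ± 0.475 FPKM in control wells at 24 h, and the effects differed by -1.35 log2 units (adjusted p = 3.81e-08). TXNIP was low at both times, with a log2 change of -1.62 at 24 h, and no difference between the effects was called (adjusted p = 0.792). The change of DDIT4 against control was more negative at 24 h, with 11.6 ± 1.04 FPKM after exposure and 46.5 ± 1.62 FPKM in control wells. Of the 15 chromatin genes 11 had a more negative effect at 2 h, 7 after scaling. Of 15 matrix genes 8 had a more positive effect at 2 h, 11 after scaling, and none a more negative one. Of 18 hypoxia and angiogenic genes 17 had a more positive effect at 2 h and none a more negative one. Against control at 24 h, 3796 of all genes tested (44.5%) differed, 2206 (25.9%) higher and 1590 (18.6%) lower. Among the 385 genes with transcripts above 8000 nucleotides 47 were higher and 138 lower. The 2 h and 24 h effects have different control wells, and control levels also differed with time, as for DDIT4 above.

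**Figure D5:**
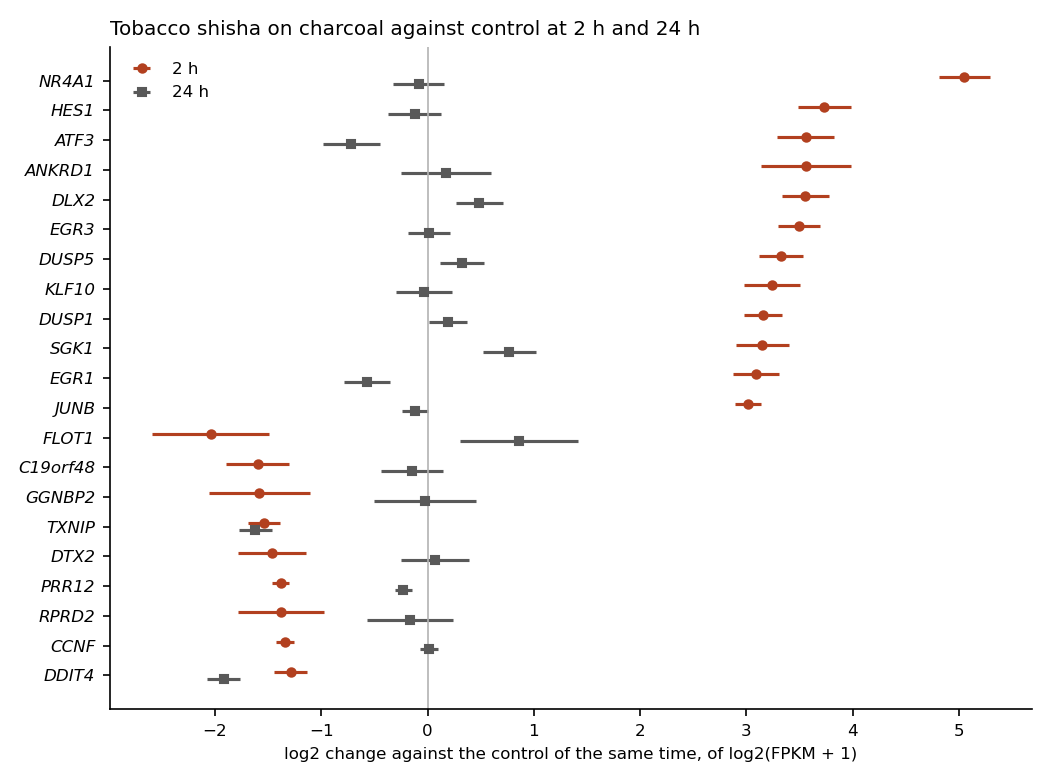
Log2 change with its SE, tobacco shisha on charcoal minus the control of the same time, at 2 h (circles) and 24 h (squares) for the 12 largest rises and 9 of the 10 largest falls at 2 h. The 12 rises are between 3.02 and 5.05 at 2 h and between -0.72 and 0.77 at 24 h, whereas TXNIP lies at -1.54 and -1.62 and DDIT4 at -1.29 and -1.92.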

How the data were processed

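RNA from 30 wells (10 groups of 3) was made into libraries with a TruSeq kit from 1 ug of total RNA and read as 50 bp single ends, per the labels' protocols and design text. Per the submitters' processing notes, hg38, HISAT2 2.1.0 and StringTie 1.3.4d were used; for annotation release, strand setting and filters nothing is stated. The authors deposited 1 FPKM value per transcript and library, the unit being that in the name of their matrix, whose values equal those of the files. FPKM sums were 204859 to 209868 in exposed and 202894 to 204046 in control wells. FPKM hold no counts, so no interval or floor from depth is given.

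Each file lists 29190 transcripts under 22537 names; the transcript with the highest mean over the 30 libraries stood for a name. Names spoilt into dates were recovered from accessions in 26 of 27 cases. Genes with at least 1 FPKM in at least 3 libraries (8531) were tested as log2(FPKM + 1) with limma 3.58.1 (trend) in R 4.3.3, with 1 mean per group over all 30 libraries, no replicate block and no scaling (20 residual and 2.76 prior degrees of freedom). This pools the spread over groups, and the added 1 shrinks the changes of genes at low FPKM. P-values were adjusted by Benjamini-Hochberg over all genes tested, with calls below 0.05. The difference between the 2 h and 24 h effects was the interaction in the same fit. The code was checked on simulated data. Transcript lengths came from GENCODE through RefSeq accessions, and positions and promoters from RefSeq. Tables and figures were made with pandas 2.3.3, numpy 2.4.6 and, for plots, matplotlib 3.10.9, under Python 3.11.15.

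Named genes were, where called with non-overlapping wells and at least 1 FPKM in the higher group, those that rose most (12) and fell most (10), up to 4 members per list with the smallest p, a few fixed genes, and the 4 largest differences each way against the other smokes; other members are named to complete a list. The 31 gene lists and 7 marker lists, matched by exact name, and the members were chosen with earlier results of these data known. Genes and samples outside the files given were not analysed here. Alternatives were pseudocounts of 0.1 and 0.5, no filter, a filter at 5 FPKM, median-of-ratios scaling, a replicate block, fits on the compared groups or on the 2 h libraries, sums over transcripts, and leaving out each well; leaving out genes listed at 0 and the length bins by scaling and level were added after seeing the data.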

Additional observations from a re-analysis of the deposited data

Results flagged for a closer look

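The effect of tobacco shisha on charcoal differed between 2 h and 24 h for all 12 of the largest rises (limma, interaction, adjusted over 8531 genes). These genes were picked by their change at 2 h, which is part of the difference tested, so the choice favours a larger effect at 2 h. The difference, 2 h effect minus 24 h effect in log2 units, was 5.13 for NR4A1, 4.28 for ATF3, 3.85 for HES1, 3.65 for EGR1 and 3.48 for EGR3. It was 3.38 for ANKRD1, 3.27 for KLF10, 3.13 for JUNB, 3.07 for DLX2, 3.00 for DUSP5, 2.97 for DUSP1 and 2.38 for SGK1. The least certain of these, ANKRD1, had an adjusted p = 0.000127. ATF3 and EGR1 were below control at 24 h by point estimate, with log2 changes of -0.72 and -0.57, and SGK1 was above it at 0.77.

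Among the 10 largest falls, also picked by their change at 2 h, the same test passed for 7. The effect was more negative at 2 h by -1.35 for CCNF (adjusted p = 3.81e-08) and -1.15 for PRR12 (adjusted p = 1.04e-07), whose wells were even. It was -2.90 for FLOT1, -1.53 for DTX2, -1.45 for C19orf48 and -1.73 for the transcript under the name MIR1281. FLOT1 was listed at 0 in all 3 exposed wells at 2 h and also in 1 control well at 24 h, and DTX2 in 1 exposed well at 2 h. DDIT4 went the other way, with a difference of 0.63 (adjusted p = 0.0248), since its fall was deeper at 24 h (-1.92) than at 2 h (-1.29). TXNIP, GGNBP2 and RPRD2 did not pass.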

How the results depend on the processing

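Of 126 genes named in the main comparison and called there, 113 kept their call and direction under every alternative that tested them. The 13 that lost it under at least 1 included DTX2, GGNBP2 and RPRD2 among the largest falls, and CANX, COX7A2, COX8A, HMGCS1, MVD, NFKBIB, RDX, SLBP and SLC7A5. CEBPB, not called at -0.02, ranged from -0.74 to 1.17 log2 units with a well left out; the highest, called at an adjusted p = 0.0377, came without exposed well 1, which held 3.81 FPKM.

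The 3001 calls against control became 1907 with the filter at 5 FPKM, which tests fewer genes, with 1297 falls; scaling gave 1467 rises and 1508 falls. Leaving out 1 well of either group gave 2516 to 2658 calls, 591 to 647 rises and 1925 to 2011 falls. Without genes listed at 0 there were 2980 calls. Against charcoal alone 1536 calls became 980 to 1191 with a well left out. Against herbal shisha 52 became 4 to 57, and 7 in a fit of these groups alone. Against the heater 1991 became 1237 to 1991, and 569 in a fit of these groups alone; the causes were not tested. The difference between 2 h and 24 h gave 3012 to 3466 calls with a well left out.

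Wells with the same number did not deviate together across all genes (correlations of deviations from group means -0.03 to 0.01). Of the exposed wells 1 was closest to its own number. This gives no sign of pairing, but it cannot show that wells of equal number share no culture or run. With the replicate block there were 2984 calls, 726 higher and 2258 lower. Depth is unknown, so nothing can be said of what it limits.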

Other observations

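Other large changes, chosen after their values were seen, fell outside the lists. RHOB, a small GTPase of the actin cytoskeleton and endosomes, measured 93.5, 77.6 and 81.7 FPKM in exposed wells, against 14.1, 15.7 and 14.2 FPKM in control wells (log2 change 2.44, SE 0.16, adjusted p = 1.05e-10). CD274, the immune checkpoint ligand PD-L1, measured 14.8, 15 and 15.8 FPKM in exposed wells, against 2.15, 2.43 and 2.1 FPKM in control wells (log2 change 2.33, SE 0.20, adjusted p = 4.02e-09). NOG, the BMP antagonist noggin, measured 22.2, 29.6 and 21.4 FPKM in exposed wells, against 4.54, 4.77 and 4.93 FPKM in control wells (log2 change 2.13, SE 0.21, adjusted p = 3.35e-08). In each of the 3 the exposed wells lay wholly above control. RGS4, which shortens signals of G protein coupled receptors, rose by 2.27, the membrane protein MYADM by 2.41 and LBH, a cofactor of transcription, by 2.18 log2 units. KRTAP2-3, a keratin associated protein of hair, measured 3.19, 5.66 and 4.71 FPKM in exposed wells, against 0.0739, 0.112 and 0.106 FPKM in control wells (log2 change 2.31, SE 0.19, adjusted p = 2.12e-09). Falls of the same kind included GRB7, an adaptor of receptor tyrosine kinases, at 0.435, 0.415 and 0.443 FPKM in exposed wells, against 2.48, 2.54 and 2.38 FPKM in control wells (log2 change -1.28, SE 0.17, adjusted p = 2.33e-06), and TICRR, which starts DNA replication, at 2.51, 2.46 and 2.26 FPKM in exposed wells, against 6.70, 6.32 and 6.4 FPKM in control wells (log2 change -1.13, SE 0.07, adjusted p = 5.15e-11).

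These genes also had values after the other smokes at 2 h. CD274 averaged 15.2 ± 0.517 FPKM after tobacco shisha on charcoal, 18.7 ± 0.211 after herbal shisha on charcoal, 14.9 ± 0.817 after charcoal alone, 9.25 ± 4.16 after tobacco shisha on the heater and 2.23 ± 0.181 in control wells (SD, n = 3 wells each). RHOB averaged 84.3 ± 8.23, 73.9 ± 3.96, 47.0 ± 4.11, 140.1 ± 39.9 and 14.7 ± 0.908 FPKM in the same 5 groups. Against charcoal alone the RHOB difference of 0.83 log2 units passed (adjusted p = 0.00112), while that of CD274, 0.03, did not (adjusted p = 0.956). At 24 h the log2 change against control was -0.18 for CD274 and -0.68 for RHOB.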
